A study of Arabidopsis thaliana with 12 samples.

Results

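Among the Arabidopsis thaliana genes that had an array probe of their own, 52 ranked higher in every sample of the pete1 mutant than in any sample of the wild type (WT). They were chosen by their measured values. All 3439 probes were ranked within each sample by deposited intensity, from the dimmest up and with ties averaged, and a gene was kept when its lowest rank in the 6 pete1 samples lay above its highest rank in the 6 WT samples. The platform's table gave exactly 1 gene for 692 probes (691 loci). Of these probes 63, or 9.1%, met the rank rule, against 353 of all 3439 probes, or 10.3%, and 208 of all probes (6.05%) ranked lower in every pete1 sample. Of the 353 probes, 130 were listed at 0 in every WT sample and met the rule through the ranking of ties, as did 32 of the 63. The rule left out 16 named genes, 11 of which met it, so that 52 genes remained. Because the ranks chose the genes, their ranks and intensities are described here without a test.

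Total RNA was measured in 6 samples of the pete1 mutant and in 6 samples of WT, numbered 1 to 6 within each genotype. The mutant has lost the plastocyanin isoform that PETE1 encodes. Both genotypes were of ecotype Columbia 0 and were grown on MS, a standard plant culture medium. The labels name no tissue, plant age, mutation type or number of plants. The spread given for a genotype is thus that of its samples and may be technical in part. PETE1 and PETE2 had no single-gene probe in the platform's table, and the loss of PETE1 was not analysed here in its own transcript.

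Plastocyanin is a small copper protein of the thylakoid lumen, the space inside the photosynthetic membranes of the chloroplast. It takes electrons from the cytochrome b6f complex and hands them to photosystem I. Arabidopsis has a pair of plastocyanin genes, PETE1 and PETE2, and the arrays ask which transcripts differ in relative abundance when PETE1 is lost.

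The 52 genes fell into 3 kinds by their intensities. There were 19 genes above 0 in all 12 samples, and AT3G53580 was above 0 in every pete1 sample and in all WT samples but WT 2. The other 32 genes were listed at 0 in every WT sample, and 18 of them were listed at 0 in every pete1 sample as well. Among probes of any kind above 0 in every sample, with none left out, 220 of 2942 (7.48%) met the rank rule. The 19 are from 595 single-gene probes above 0 in every sample, which also hold the 11 left-out genes that met the rule. The label of a higher rank thus covers both genes with a measured signal and genes with no listed signal, and the kinds are described apart.

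The scale of the deposited values differed between the genotypes. The median intensity of a sample was between 0.279 and 0.331 in pete1 and between 0.485 and 0.627 in WT. Of the 2942 probes above 0 in every sample, 16.7% had a higher mean in pete1 than in WT, and their median log2 ratio of means was -0.68. A gene can therefore rank higher in pete1 while its intensity is equal or lower. In whole-plant or tissue RNA, fewer cells of a type and less RNA per cell cannot be told apart. Samples with consecutive numbers (1 and 2, 3 and 4, 5 and 6) of a genotype were also more alike than other samples of that genotype, with Spearman correlations across probes of 0.955 to 0.980, against 0.849 to 0.901 for the other pairs. Whether consecutive numbers share plants or RNA is not given in the labels, so the 6 samples of a genotype may hold fewer than 6 independent ones.

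The 19 genes above 0 in every sample moved up by 2.66 to 31.3 percentile points in median rank (median 18.8), where a percentile is the rank as a percent of the 3439 probes of the sample. All 595 single-gene probes above 0 in every sample had a median shift of -1.51 points. In deposited intensity, 15 of the 19 genes had a higher mean in pete1 and 4 a lower one. Their log2 ratios of means ran from -0.24 to 0.92 with a median of 0.25, against a median of -0.75 over the 595 probes. The rule chose the 19 for higher ranks in pete1, so it fixes an upward rank shift and favours a higher ratio. When each intensity was first divided by the median of its sample, all 19 ratios were above 1, with a median of 1.06 on the log2 scale. Every pete1 sample median was below every WT sample median, so this division raises the ratio of any probe. The divided ratios of the 595 probes were not computed for comparison. These genes were bright and dim alike. The median WT rank lay under the 25th percentile for 8 of them and at or above the 75th for 3.

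**Figure D1:**
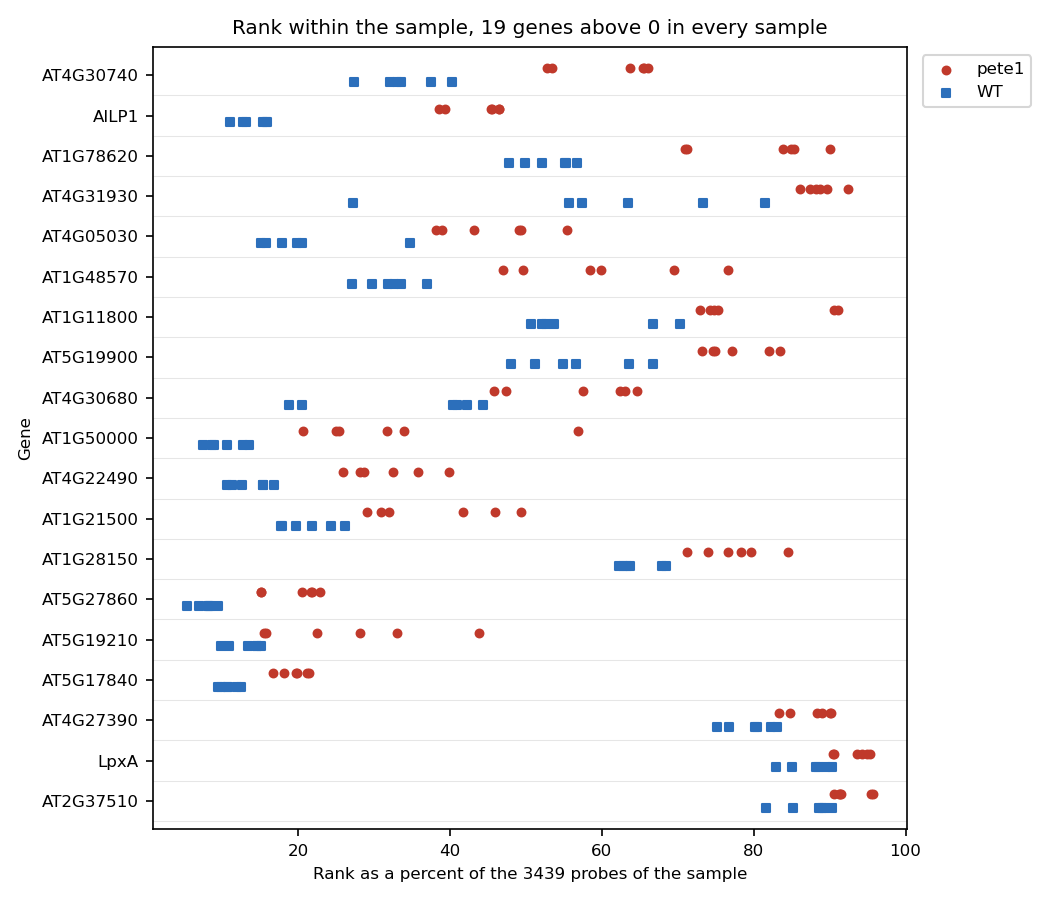
Rank of each of the 19 genes in each sample (x axis, percent of the 3439 probes of the sample), with 6 pete1 samples as circles and 6 WT samples as squares below them. Genes run from the largest shift in median rank (AT4G30740, 31.3 points) at the top to the smallest (AT2G37510, 2.66 points), and by the rule no pete1 circle lies left of a WT square of the same gene.

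AILP1 (AT5G19140), named for its likeness to aluminium-induced proteins, was the only one of the 52 genes whose deposited intensities did not overlap either. Its lowest, median and highest intensities were 0.223, 0.253 and 0.296 in pete1, against 0.122, 0.164 and 0.178 in WT. The mean was 0.256 ± 0.0252 in pete1 and 0.157 ± 0.0213 in WT (SD, n = 6 each), a 1.63-fold ratio. The ratio was 1.61 for numbers 1 and 2, 1.77 for numbers 3 and 4, and 1.54 for numbers 5 and 6, so it varied little between pairs. AILP1 also had the widest gap of ranks, with its lowest pete1 sample at the 38.5th percentile and its highest WT sample at the 15.8th. Over all probes, 55 of 3439 (1.6%) had intensities in every pete1 sample above those in every WT sample, and 3 of 692 single-gene probes (0.434%) did so. The other 2 of those 3 were LHB1B2, an antenna protein of photosystem II, and PRK, an enzyme of the Calvin cycle, both among the genes left out by the rule.

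Besides AILP1, 5 genes had a mean intensity over 1.5 times as high in pete1 as in WT. AT4G31930 had the largest ratio, 1.89, with 1.20, 1.32 and 1.91 as the lowest, median and highest intensities in pete1, against 0.267, 0.645 and 1.31 in WT. Its groups overlapped only through WT 1 (1.31), which was above pete1 1 (1.27), pete1 2 (1.20) and pete1 5 (1.28), and the ratio was 1.04 for numbers 1 and 2, 4.0 for numbers 3 and 4, and 2.05 for numbers 5 and 6. Without numbers 1 and 2 of both genotypes, left out after seeing the data, the ratio was 2.82.

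AT1G78620 ran from 0.616 through a median of 0.985 to 1.61 in pete1, and from 0.487 through 0.577 to 0.703 in WT, a ratio of 1.71. The overlap came from pete1 5 (0.616) and pete1 6 (0.627), which were below WT 1 (0.703) and WT 2 (0.654). Each pete1 sample was nonetheless above the WT sample of the same number. In rank the gene had its median at the 84.4th percentile in pete1, against the 53.7th in WT.

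AT1G50000 and AT5G27860 were dim in both genotypes. AT1G50000 had 0.101, 0.163 and 0.345 as its lowest, median and highest intensities in pete1, against 0.0672, 0.0986 and 0.147 in WT, a ratio of 1.76. Its highest pete1 value was that of pete1 1, and the next was 0.206 in pete1 6. AT5G27860 had 0.0646, 0.109 and 0.114 in pete1, against 0.0184, 0.0549 and 0.0938 in WT, a ratio of 1.73. Both genes were higher in pete1 in 6 of 6 equal numbers, and in both the lowest pete1 sample was below the highest WT sample. After quantile normalisation, which gives all samples 1 distribution of values, the log2 difference was 2.73 for AT1G50000 and 4.86 for AT5G27860. In the intensities as deposited the log2 ratios were 0.81 and 0.79. The WT percentiles were 7.50 to 13.5 for AT1G50000 and 5.41 to 9.42 for AT5G27860. The lowest of these ranks are held by probes at 0 in some pete1 samples, which had 244 to 293 such probes. The normalised differences therefore depend on the zeros and on the small constant added before the logarithm. How far they do so was not tested, and their size is not read as an effect.

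AT1G11800 had a ratio of 1.55 that came from a pair of samples. Its intensities in pete1 were 1.67 in sample 1 and 1.83 in sample 2, with the other 4 samples at 0.627 to 0.697, against 0.549, 0.647 and 0.826 as the lowest, median and highest in WT. Without numbers 1 and 2 the ratio was 0.992. The gene kept its place among the 52 because the remaining pete1 intensities, although inside the WT range, were higher in rank: the lowest pete1 sample was at the 73.0th percentile and the highest WT sample at the 70.3rd.

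**Figure D2:**
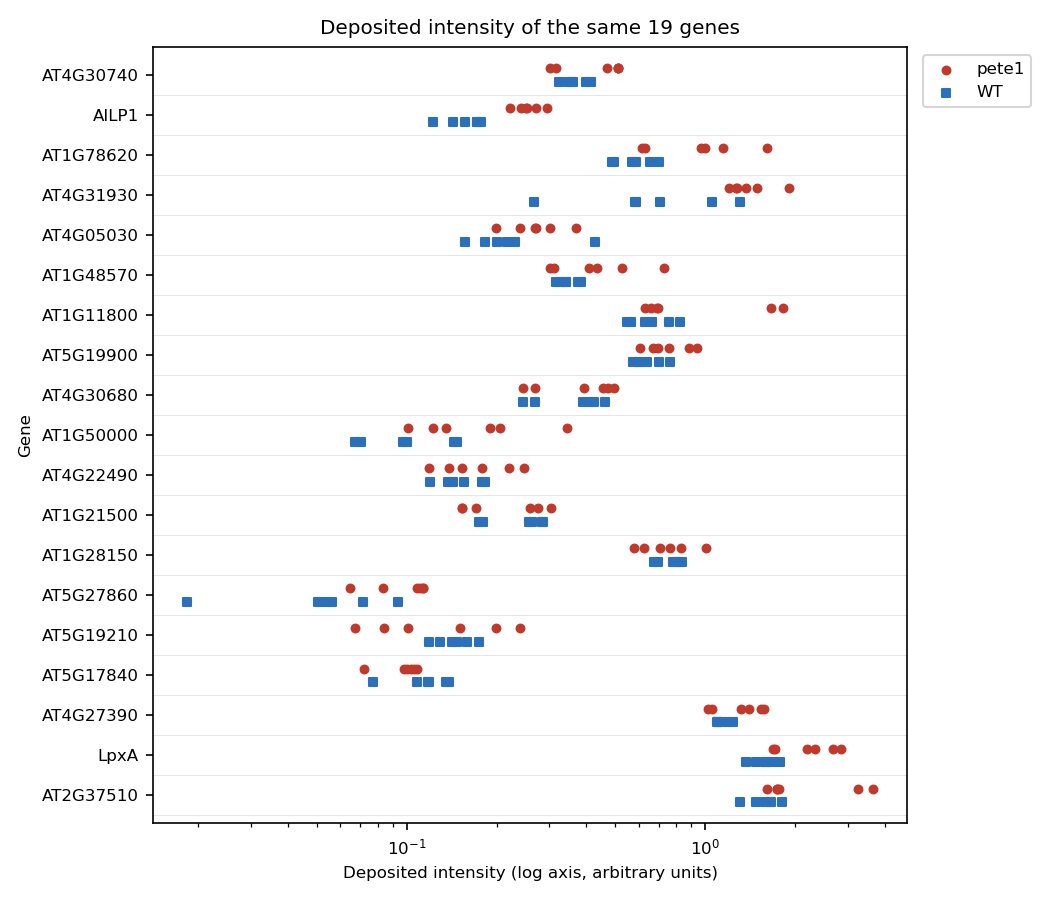
Deposited intensity (log x axis, arbitrary units) of the same 19 genes in the 6 pete1 samples (circles) and the 6 WT samples (squares below them). Only for AILP1 do all pete1 circles (0.223 to 0.296) lie to the right of all WT squares (0.122 to 0.178).

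The largest shift in median rank, 31.3 percentile points, was that of AT4G30740, whose mean intensity was 1.19 times as high in pete1 as in WT. It had 0.303, 0.490 and 0.512 as the lowest, median and highest intensities in pete1, against 0.323, 0.359 and 0.416 in WT. The samples pete1 1 (0.303) and pete1 2 (0.317) were below every WT sample, and the other 4 pete1 samples were above every WT sample. In rank, pete1 1 and 2 nevertheless stood above all WT samples.

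AT4G05030, AT1G48570 and AT5G19900 had likewise large shifts in rank, of 27.3, 26.9 and 20.2 percentile points, and ratios of mean intensity of 1.17, 1.30 and 1.17. AT4G05030 had 0.200, 0.271 and 0.371 in pete1, against 0.157, 0.209 and 0.428 in WT, where the highest value was that of WT 2. AT1G48570 had 0.301, 0.420 and 0.728 in pete1, against 0.317, 0.342 and 0.384 in WT. AT5G19900 had 0.606, 0.724 and 0.937 in pete1, against 0.574, 0.620 and 0.760 in WT. The genotypes overlapped in intensity for all 3 genes, and in AT1G48570 the lowest sample of all 12 was a pete1 sample. The ratio of AT1G48570 was 1.06 without numbers 1 and 2, where pete1 1 (0.527) and pete1 2 (0.728) had been its highest samples.

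A further 4 genes ranked higher in every pete1 sample although their mean intensity was lower in pete1. AT5G17840 had the lowest log2 ratio, -0.24, with a mean of 0.0980 ± 0.0133 in pete1 and 0.116 ± 0.0222 in WT (SD, n = 6 each). The log2 ratio was -0.14 for AT1G21500, -0.05 for AT5G19210 and -0.03 for AT1G28150. After division by the sample median the log2 ratios of these 4 genes were 0.57, 0.68, 0.76 and 0.77, in the same order of genes. AT4G30680 and AT4G22490 had log2 ratios of 0.08 and 0.20 as deposited, and 0.84 and 0.99 after that division. The direction in the first 4 of these 6 genes turned with the scale, and the same division raised the log2 ratio of all 19 genes.

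**Figure D3:**
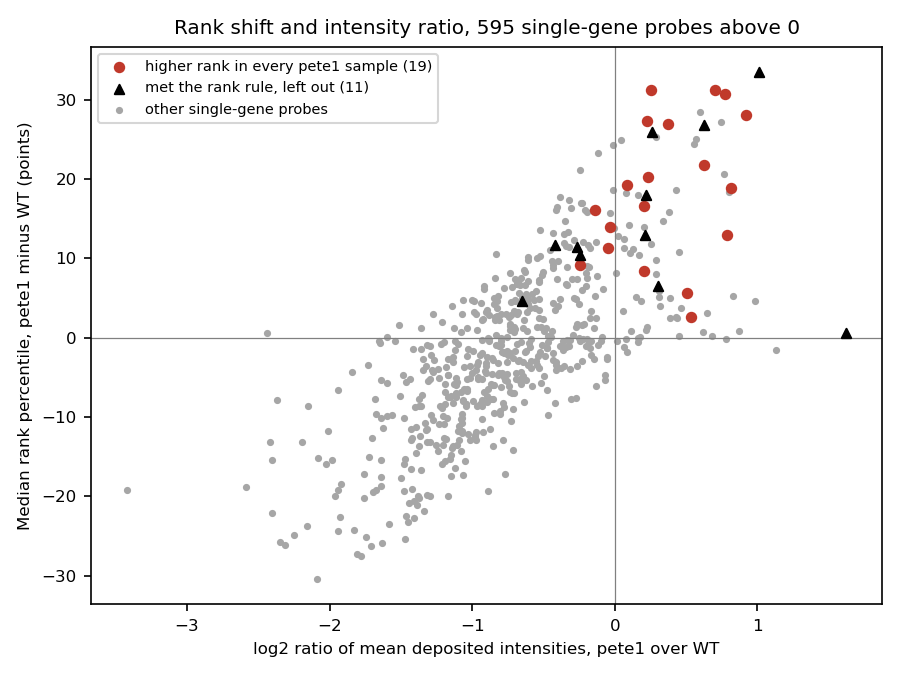
Shift in median rank (y axis, percentile points, pete1 minus WT) against the log2 ratio of mean deposited intensities (x axis, pete1 over WT) for the 595 single-gene probes above 0 in every sample, with the 19 genes as circles, the 11 left-out genes that met the rule as triangles and the rest as grey points. Most of the cloud lies left of 0 on the x axis (median -0.75, with 78 of the 595 probes to the right of 0), and the 19 genes lie above 0 on the y axis, 15 of them to the right of 0 on the x axis and 4 to the left.

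At the bright end, small gaps in rank decided which genes were kept. LpxA (AT4G29540), related to the acyltransferase that begins lipid A synthesis in Escherichia coli, was 4 ranks inside the threshold. It had 1.69, 2.27 and 2.85 as its lowest, median and highest intensities in pete1, against 1.37, 1.59 and 1.79 in WT, a ratio of 1.42, and was higher in pete1 in 6 of 6 equal numbers. AT4G27390 was 8 ranks inside, with 1.02, 1.36 and 1.57 in pete1, against 1.09, 1.12 and 1.24 in WT. AT2G37510 was also 8 ranks inside, with 1.61, 1.76 and 3.65 in pete1, against 1.31, 1.61 and 1.82 in WT, and its higher pete1 values were those of pete1 1 (3.26) and pete1 2 (3.65). Without numbers 1 and 2 its ratio was 1.02, against 1.45 with them.

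Just outside the threshold were PSBW, a small subunit of photosystem II, AT1G44830 and AT2G44760, whose lowest pete1 rank was 3, 7 and 10 ranks below their highest WT rank. PSBW had 38.7, 41.7 and 62.3 in pete1, against 20.4, 26.3 and 41.1 in WT, so that it missed the rule although its ratio of mean intensities was 1.60. AT1G44830 had 0.979, 1.15 and 1.58 in pete1, against 0.957, 1.12 and 1.23 in WT. AT2G44760 had 1.52, 1.78 and 4.14 in pete1, against 1.51, 1.56 and 1.79 in WT. In all 6 genes on either side of the threshold the intensities of the genotypes overlapped.

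The 19 genes did not share a single pattern over the sample numbers. The ratio of pete1 to WT was above 1 in all 3 pairs of consecutive numbers for 9 genes, AILP1, AT1G78620, AT4G31930, AT1G48570, AT5G19900, AT4G30680, AT1G50000, AT5G27860 and LpxA. Of these, AILP1, AT1G78620, AT1G50000, AT5G27860 and LpxA were higher in pete1 in 6 of 6 equal numbers. The rule chose the 19 by the same values, which favours such counts. The like counts over the 595 single-gene probes above 0 were not computed, so nothing is read from them. The ratio for numbers 1 and 2 was 2.75 for AT1G50000, 2.70 for AT1G11800, 2.47 for AT2G37510, 2.32 for AT5G27860 and 2.03 for AT1G78620. In contrast it was 0.564 for AT1G21500, 0.663 for AT5G17840, 0.725 for AT1G28150, 0.750 for AT4G05030 and 0.833 for AT4G30740. Numbers 1 and 2 thus held ratios well above and well below 1, and numbers 3 and 4 ran from 0.789 for AT5G19210 to 4.0 for AT4G31930.

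**Figure D4:**
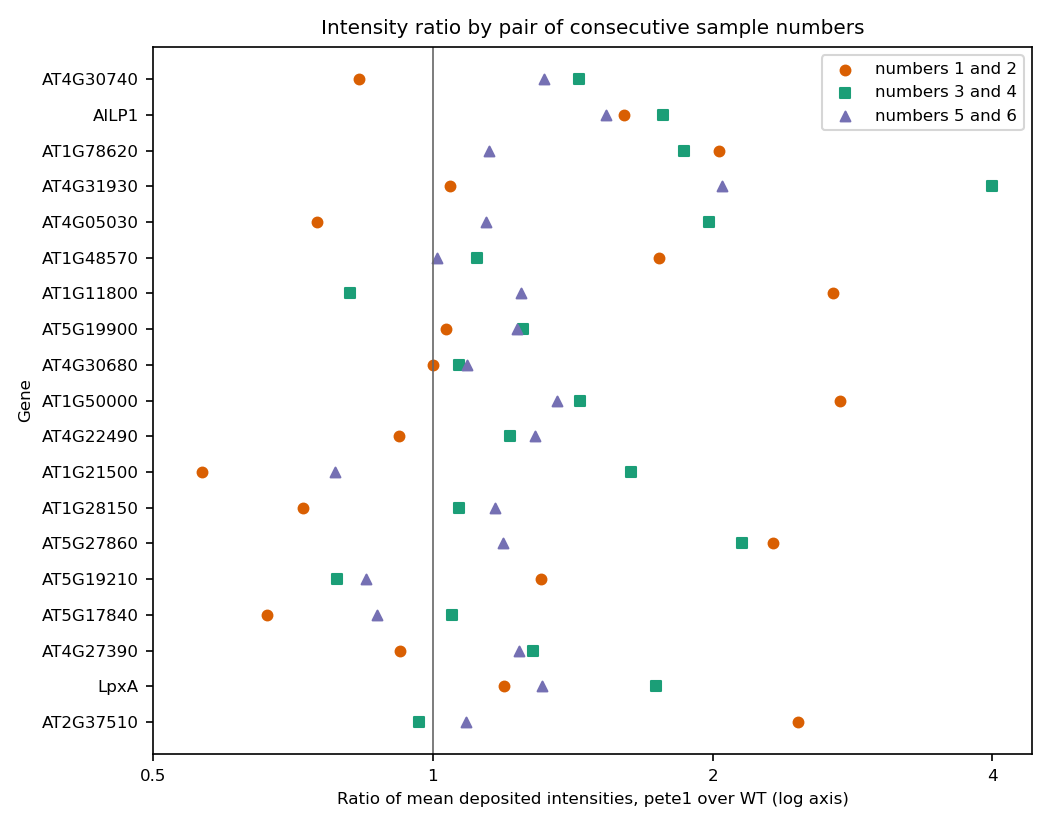
Ratio of mean deposited intensities, pete1 over WT (log x axis), for each of the 19 genes in samples 1 and 2 (circles), 3 and 4 (squares) and 5 and 6 (triangles), with a line at a ratio of 1. For numbers 1 and 2 the ratios run from 0.564 (AT1G21500) to 2.75 (AT1G50000), whereas AILP1 lies between 1.54 and 1.77 in every pair.

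AT3G53580 was the gene listed at 0 in a single WT sample. Its intensities in pete1 were 0.0625, 0.182, 0.0513, 0.0483, 0.0782 and 0.0773 in samples 1 to 6, against 0.144, 0, 0.0815, 0.0897, 0.144 and 0.0698 in WT samples 1 to 6. Only pete1 2 was above all WT samples. It was higher in pete1 in 2 of 6 equal numbers, and no ratio is given because of the 0.

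The 32 genes listed at 0 in every WT sample entered through the way ties are ranked. All probes at 0 in a sample share the average of the ranks they occupy, and there were 244 to 293 such probes in a pete1 sample and 170 to 206 in a WT sample. The shared rank was therefore 122.5 to 147 in pete1 and 85.5 to 103.5 in WT, and the ranges did not overlap. Every probe at 0 in all WT samples met the rule for this reason, 130 of the 3439 probes and 32 of the 692 single-gene probes. With ties given their lowest rank in place of the average, none of the 32 was kept, and the 20 genes above 0 in every pete1 sample all remained.

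**Figure D5:**
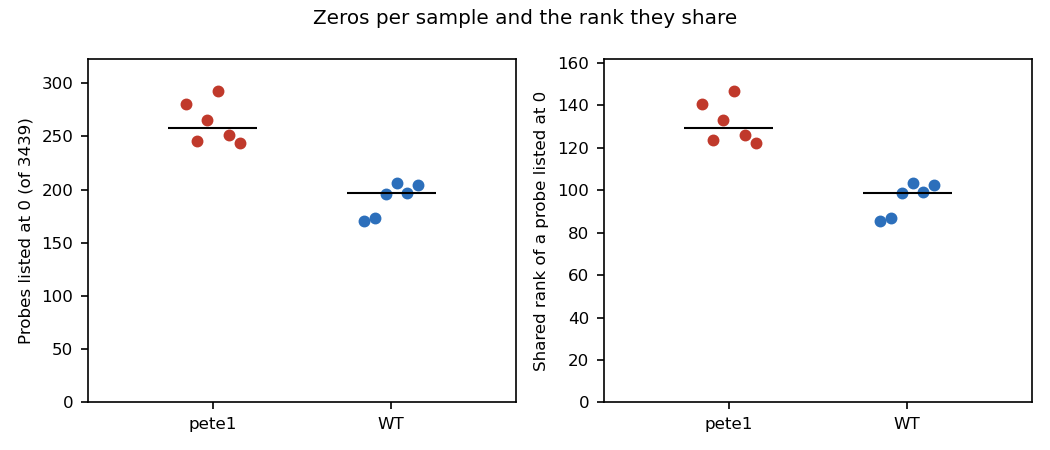
Number of probes listed at 0 in each sample (left, of 3439) and the rank that those probes share (right), for 6 pete1 and 6 WT samples, with a line at the median. The shared rank is 122.5 to 147 in pete1 and 85.5 to 103.5 in WT, so a probe listed at 0 in all 12 samples ranks higher in every pete1 sample.

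The 18 genes listed at 0 in all 12 samples were CCB3, UPP, AT1G07970, AT1G10310, AT1G35340, AT1G62760, AT1G66090, AT1G68160, AT1G73430, AT1G76450, AT3G06200, AT3G50350, AT4G15790, AT5G25990, AT5G48270, AT5G52970, AT5G63460 and AT5G65220. CCB3 (AT5G36120) acts in attaching a haem cofactor of the cytochrome b6f complex, the electron donor of plastocyanin, and UPP (AT3G53900) is a uracil phosphoribosyltransferase of pyrimidine salvage. No level and no difference between the genotypes can be given for any of the 18.

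The other 14 genes were listed at 0 in every WT sample and above 0 in 1 pete1 sample (10 genes) or in 2 pete1 samples (4 genes). They were IAA31, AT5G65360, AT1G18440, AT1G32190, AT1G67820, AT2G45500, AT2G46220, AT3G44020, AT5G13410, AT5G16230, AT5G19370, AT5G25510, AT5G46420 and AT5G49840. Their highest pete1 intensity was between 0.00194 and 0.138, with a median of 0.0143. IAA31 (AT3G17600), of the Aux/IAA repressors of the auxin response, was at 0.0418 in pete1 3 and at 0 in the other 11 samples. AT5G65360, a histone H3.1 gene, was at 0.00611 in pete1 2 and at 0 in the other 11 samples. AT5G25510 had the highest value, 0.138 in pete1 3, at the 25.2nd percentile of that sample. AT2G45500 was at 0.0218 in pete1 2 and at 0.0391 in pete1 3.

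These few positive values were spread unevenly over the mutant samples. Of the 32 genes at 0 in WT, 9 were above 0 in pete1 3, 3 in each of pete1 2 and pete1 4, 2 in pete1 1, 1 in pete1 6 and none in pete1 5. Among all 130 probes at 0 in every WT sample, pete1 3 likewise had the most above 0, 20, and pete1 5 the fewest, 5. Over all probes, 50 were at 0 in every WT sample and above 0 in some pete1 sample, whereas 31 were at 0 in every pete1 sample and above 0 in some WT sample. None of the 130 was above 0 in every pete1 sample.

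A fit across all 3439 probes gave the background of calls for this contrast. With limma on quantile-normalised log2 values and a Benjamini-Hochberg adjusted p under 0.05, 369 probes were higher in pete1, or 10.7%, and 377 were lower. Of the 52 genes, the 19 above 0 in every sample were called higher and none was called lower. The rule used the same values, so nothing is read from this count. The split of calls followed the scale: in the intensities as deposited 115 probes (3.34%) were higher and 1746 lower, with 5 of the 52 genes called higher, and after median centring 664 were higher and 357 lower, with 36 of the 52. Of those 36, 18 were the genes listed at 0 in every sample. The median log2 difference of all probes in these fits was -0.01 after quantile normalisation, -0.73 as deposited and 0.08 after median centring. A random block for consecutive numbers left limma with 163 probes called, 95 higher and 68 lower in pete1. Of the 52 genes 6 were then called, all of them higher. When consecutive numbers were averaged, limma called 7 probes in all, each lower in pete1, and none of the 52. In that fit 17 of the 52 were higher at an unadjusted limma p under 0.05, beside 563 of all 3439 probes in either direction. Because the rule used these values, nothing is read from the 17.

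Few of the 52 genes carried an annotation that could be grouped. RefSeq's table of genes (assembly TAIR10.1) gave a descriptive name to 67 of the 692 single-gene probes and to 4 of the 52 genes, IAA31, CCB3, UPP and AT5G65360, and all 4 were listed at 0 in every WT sample. No group of functions made by key words held 3 or more of the 52 genes. Only metabolic enzymes (14 single-gene probes), photosynthesis (6) and folding and proteases (3) matched enough probes to do so. For the other groups the outcome was fixed in advance, so no lack of a shared function is read from it. Of 16 genes of copper handling and redox control, only CCS and SRX had a probe of their own. CCS, the copper chaperone of superoxide dismutase, met the rule but was left out by name. Its mean deposited intensity in pete1 was 0.637 times that in WT, and 1.14 times after division by the sample median. It was higher in pete1 in 2 of 6 equal numbers. SRX, sulfiredoxin, did not meet the rule. Its ratios were 0.224 as deposited and 0.398 after that division, and it was higher in pete1 in 0 of 6 equal numbers. None of 15 marker genes of root, seed, flower and green tissue had a single-gene probe, so the sampled tissue was not checked.

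By locus code, the 692 single-gene probes were 25.1% on chromosome 1, 17.9% on chromosome 2, 18.8% on chromosome 3, 17.3% on chromosome 4 and 20.7% on chromosome 5. The 19 genes above 0 in every sample were 6, 1, 0, 7 and 5 on chromosomes 1 to 5. The 32 genes at 0 in every WT sample were 11, 2, 5, 1 and 13 in the same order, and AT3G53580 was on chromosome 3. These counts are small and were not tested. In the order of protein-coding genes of TAIR10.1, AT4G30680 and AT4G30740 were 6 places apart and AILP1 and AT5G19210 were 10 places apart. They were the only neighbours among the 52 within 10 places. Such pairs were not counted among the other single-gene loci, so nothing is read from the nearness. AT4G30680 had 0.245 and 0.269 in pete1 1 and 2 and 0.393 to 0.495 in pete1 3 to 6, against 0.269 and 0.245 in WT 1 and 2 and 0.389 to 0.463 in WT 3 to 6. Its neighbour AT4G30740 was likewise lowest in pete1 1 and 2, whereas its WT samples 1 and 2 (0.346 and 0.398) lay within the range of the other WT samples (0.323 to 0.416).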

How the data were processed

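Deposited intensities, 1 per probe and sample, were taken as the authors gave them; the values are linear, none is below 0, the sample means lie between 0.917 and 1.07, and how they were scanned, background-corrected and scaled is not given in the sources used here. No spot quality was used. The number of samples limits how precise a value is. Gene names came from the platform's table with symbols brought up to date by gene identifier from RefSeq's table (690 of 692 matched). No genome build is named with the deposited intensities. The order of genes was taken from TAIR10.1 in RefSeq's table, and no coordinates are given. Ranks and ratios were computed in Python 3.11.15 with pandas 2.3.3. The fit used limma 3.58.1 in R 4.3.3 with statmod 1.5.0 on log2(intensity + 4.74e-05), the smallest positive intensity, quantile normalised, two-sided, over all probes. It was run on simulated data with independent samples, which do not hold the likeness of consecutive numbers and so do not test the fit for it. Deviations from the genotype mean correlated at 0.221 to 0.452 between equal numbers in all 6 pairs. Unequal numbers were not compared and consecutive numbers were alike, so this does not show that single numbers pair the samples. The sample number was also fitted as a block, as an alternative.

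The genes, lists and rules were chosen with earlier results of these data known. Every one of the 52 genes is named. The lowest, median and highest intensities are given for genes whose intensities do not overlap, for the 8 largest shifts in median rank and for the 3 genes nearest the threshold on each side; AT1G50000, AT5G27860 and AT3G53580 were added after their values were seen. Promoter and protein sequences were not used here.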

Additional observations from a re-analysis of the deposited data

Results flagged for a closer look

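Of 54 groups of 6 intensities of the named genes, 16 held a sample far from the other 5 by Dixon's test. Chance alone gives about 5% of groups for independent values, and consecutive numbers were alike. Only 3 of the 16 were among the 40 groups of genes above 0 in every pete1 sample. AT4G05030 was at 0.428 in WT 2, with the other WT samples between 0.157 and 0.230. AT5G17840 was at 0.0720 in pete1 1, below the other pete1 samples at 0.0983 to 0.109. AT3G53580 reached 0.182 in pete1 2, with its other pete1 samples between 0.0483 and 0.0782.

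The other 13 were pete1 samples of genes listed at 0 in every WT sample, where a single value above 0 suffices. In pete1 3 they were AT5G25510 (0.138), AT2G46220 (0.0433), IAA31 (0.0418), AT5G46420 (0.0268), AT5G13410 (0.0181), AT1G18440 (0.00576) and AT1G67820 (0.00194). In pete1 4 they were AT1G32190 (0.0306), AT5G49840 (0.00772) and AT5G16230 (0.00770). In pete1 2 they were AT3G44020 (0.0106) and AT5G65360 (0.00611), and in pete1 6 it was AT5G19370 (0.00454).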

How the results depend on the processing

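Against 52 genes, the rank rule kept 20 with ties at their lowest rank, 18 with ranks among probes above 0 in every sample, 13 without dim probes and 1 in the deposited intensities, all of them among the 52. It kept 26 with ranks among single-gene probes (22 of them among the 52), 53 with intensities divided by the sample median (16 of them), 84 with consecutive numbers averaged and, added after seeing the data, 102 without numbers 1 and 2. Fewer samples can only loosen a rule over all samples, and leaving out 1 sample gave 53 to 57. The median log2 ratio of means of the 19 genes above 0 was 0.25 as deposited and 1.06 over the sample median. After quantile normalisation the median difference of mean log2 values was 1.14. Both settings turned 4 negative values positive. Quantile normalisation keeps the order of probes within a sample, so by the rule all 19 differences had to be positive. As deposited, the median log2 ratio was 0.20 to 0.37 on leaving out 1 sample, which turned at most 2 of the 19 signs. It was 0.33 without numbers 1 and 2, which turned the signs of AT1G11800, AT1G21500 and AT1G28150. Against 746 probes called by limma, the intensities as deposited gave 1861, consecutive numbers as a random block 163 and averages of them 7 (563 at an unadjusted p under 0.05). Leaving out 1 sample gave 550 to 722. The replicate block, which treats equal numbers as pairs, gave 743 probes, 380 higher and 363 lower in pete1. It called 16 of the 52 genes higher, against 19. Other limma settings stayed between 554 and 1021. The cause of these changes was not tested beyond what each setting does by construction. No measure of signal over background was at hand, so whether the values at or near 0 hold signal was not tested.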
